A study of Mus musculus with 21 samples.

Results

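Clone-named transcripts are genes that the annotation of the time identified only by the genomic clone on which they lie, under names such as RP24-388H18.1. A locus was taken as clone-named where every gene name that it holds in the deposited merged annotation starts with RP23- or RP24-, which gave 1123 of the 32052 loci in the expression table. The RNA came from taste buds of the circumvallate papilla, a chemosensory structure at the back of the tongue, of wild type C57BL/6J mice aged 20 to 24 weeks. The labels give 21 libraries, 7 each named Ad lib, Satiated and Hungry, and cDNA was primed with oligo(dT), which anneals to poly(A) tails. All 3 groups share strain, genotype and age, and the series' design text speaks of ad libitum, fed and fasted animals without tying these words to the names of the groups. The labels do not say whether RNA of several animals was pooled. The 3 conditions of the expression table held identical values at every locus, so nothing here compares feeding states. No value per library was available either, so each level below is the authors' mean over all libraries, with no test.

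RP23 and RP24 are libraries of large genomic clones made from C57BL/6J DNA, from which much of the mouse reference sequence was assembled. Annotators who found a transcript or pseudogene on a clone and had no approved symbol for it named it after the clone. Such names therefore gather objects of several kinds. Long noncoding RNAs are transcribed and often spliced but carry no long reading frame. Processed pseudogenes are copies of mature messenger RNAs that were written back into the genome, without introns and mostly without a promoter of their own. TEC is the annotation's label for transcripts still awaiting experimental evidence, many of them a single exon. A fragment of a sequence that occurs in many places, such as a retrotransposon or a recent pseudogene, can be assigned to more than one of them.

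By transcript identifier, 1066 of the clone-named loci could be matched to GENCODE M21, a later annotation of the same build, GRCm38. M21 classed 456 as pseudogenes, 397 as TEC, 189 as long noncoding RNAs, 14 as protein-coding genes and 1 as an immunoglobulin D segment, 9 held genes of several classes, and 57 were not matched. None lay on an unplaced scaffold, although the table holds 42 loci on GL scaffolds and 40 on JH scaffolds, so the word unplaced was not borne out for these loci. Patch or alternate sequences held 18 of them, all listed at 0. The other 1105 lay on chromosomes, with 329 on chromosome 1, 328 on chromosome 3, 163 on chromosome Y and 50 on chromosome 9.

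Sequences of M21 transcripts show the kinds of object behind these names. The first 3 pairs set a stretch of 90 bases of a processed pseudogene beside the coding sequence of the gene that it resembles, with the bases that differ in capitals. They were chosen after their levels had been seen, to show the positions at which a pseudogene differs from the gene that it resembles.
RP23-257I21.1: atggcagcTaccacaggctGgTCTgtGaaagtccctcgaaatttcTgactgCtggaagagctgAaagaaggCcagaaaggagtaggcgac
Ube2v1: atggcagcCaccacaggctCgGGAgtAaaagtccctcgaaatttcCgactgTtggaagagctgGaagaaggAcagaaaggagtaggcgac
RP23-370E6.2: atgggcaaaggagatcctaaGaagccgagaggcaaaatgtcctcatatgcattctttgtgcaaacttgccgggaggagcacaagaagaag
Hmgb1: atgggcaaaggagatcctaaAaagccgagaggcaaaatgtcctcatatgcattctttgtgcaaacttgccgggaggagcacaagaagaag
RP24-252K15.3: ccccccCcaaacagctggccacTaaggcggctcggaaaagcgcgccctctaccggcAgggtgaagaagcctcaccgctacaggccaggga
H3f3b: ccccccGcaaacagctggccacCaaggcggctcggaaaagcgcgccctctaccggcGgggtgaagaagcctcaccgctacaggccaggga
The windows hold 10 differences for RP23-257I21.1, 1 for RP23-370E6.2 and 3 for RP24-252K15.3. Over the whole alignment the identity was 91.2% with Ube2v1 (a ubiquitin-conjugating enzyme variant), 97.0% with Hmgb1 (a chromatin protein) and 96.8% with H3f3b (a histone of the H3.3 kind).

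A different kind is the locus with the most fragments that match no annotated transcript, RP23-255L15.1 on chromosome 11. Its first 300 bases on the minus strand, at chr11:9705324-9705623 of GRCm38, are shown because the locus was listed at 0 compatible fragments and 6445 in total.
RP23-255L15.1: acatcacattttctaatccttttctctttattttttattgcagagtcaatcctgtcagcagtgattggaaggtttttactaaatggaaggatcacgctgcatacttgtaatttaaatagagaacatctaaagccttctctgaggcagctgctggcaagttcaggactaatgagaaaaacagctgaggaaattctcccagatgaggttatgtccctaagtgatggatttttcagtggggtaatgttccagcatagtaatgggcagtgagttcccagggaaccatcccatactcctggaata

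Because the cDNA was primed on poly(A), the 3′ ends of the annotated transcripts also bear on the data. The last 60 bases of 4 TEC transcripts follow, chosen for their level among those without a near-identical copy and with a polyadenylation signal, AATAAA or ATTAAA on the transcript's strand, in capitals.
RP23-267J18.1, chr1:5309958-5310017, plus strand: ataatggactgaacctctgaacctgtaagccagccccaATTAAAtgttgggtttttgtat
RP23-44D10.1, chr4:12671784-12671843, plus strand: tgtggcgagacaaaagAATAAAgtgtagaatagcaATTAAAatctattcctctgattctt
RP24-204F1.1, chr3:75022396-75022455, minus strand: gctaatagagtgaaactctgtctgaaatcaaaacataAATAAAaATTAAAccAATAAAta
RP24-252K15.4, chr1:178341411-178341470, plus strand: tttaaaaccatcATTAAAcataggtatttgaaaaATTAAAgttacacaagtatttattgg
A match of these letters is a description and not evidence that the site is used.

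Most clone-named loci carried no fragments compatible with their transcripts. The authors' mean was 0 at 698 loci, of which 542 still held fragments in total and 156 held none. A mean of at least 1 was reached by 207 loci, of at least 10 by 104, of at least 50 by 46, of at least 100 by 26 and of at least 1000 by 1. With detection set at a mean of 10, 9.26% of clone-named loci were detected, against 42.0% of all loci in the table. Loci with Gm-numbered names only, the other large class of provisional names, were detected in a similar share, 9.35% of 9941. Loci with Rik names only, taken from full-length cDNA clones, were detected in 29.4% of 1148. The detection limit did not fall in a gap. RP24-111E3.1 lay just under it at 9.99 and RP24-89F9.4 just above it at 10.1.

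Total fragments, which include those in a locus that match no annotated transcript, were also given for each locus. They reached 10 at 239 clone-named loci, 21.3%, against 50.3% of all loci. The median total was 1.26, the upper quartile 7.49, the 90th percentile 37.7 and the maximum 6445. For compatible fragments the median was 0, the upper quartile 0.228, the 90th percentile 7.04 and the maximum 1693. Summed over members, compatible fragments came to 12686, or 0.0580% of all compatible fragments in the table, and total fragments to 41017, or 0.173%. Compatible fragments thus made up 30.9% of the members' total, whereas they made up 92.1% over all loci. The 20 most abundant members held 68.1% of the members' compatible fragments, and the first of them alone held 13.3%.

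**Figure D1:**
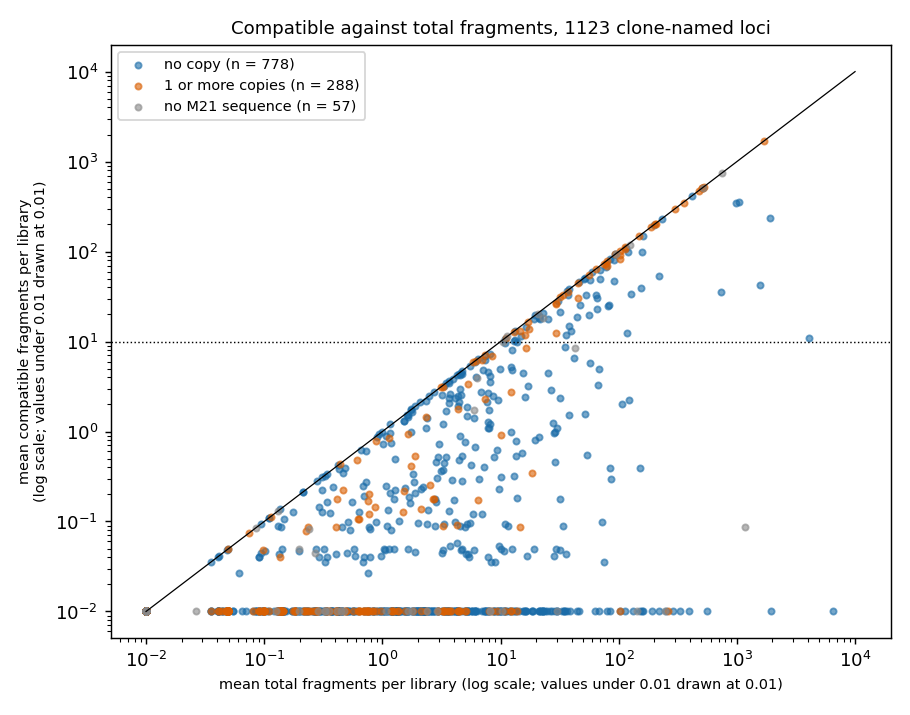
Each point is one of the 1123 clone-named loci, with the authors' mean total fragments per library on the horizontal axis and the mean compatible fragments on the vertical axis, both on log scales, with values under 0.01 drawn at 0.01. Points near the solid line of equality have nearly all fragments compatible, the bottom row holds the loci listed at 0 compatible fragments, which reach 6445 in total, and the dotted line marks the detection limit of 10.

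The deposited means are not divided by length. Levels per kilobase of exon are given in this paragraph only, and all other levels and ranks are of undivided fragments. At detected clone-named loci the exons spanned a median of 1574.5 bases, from 210 at RP23-229N10.3 to 74456 at RP23-44D10.1, and 88 of the 104 had no intron. Per kilobase of exon, their median was 32.7 fragments, against 64.5 at detected Gm-named loci and 122 at all detected loci. RP23-229N10.3 led on this scale with 1666 fragments per kilobase, followed by RP24-388H18.1 with 1497. These levels may not be independent, since the transcript of RP23-229N10.3 matches that of RP24-388H18.1 at 96.2% identity over its whole length. RP23-44D10.1, which had a mean of 99.8 fragments, came last with 1.34 per kilobase.

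RP24-388H18.1 was the most abundant clone-named locus, with 1693 compatible fragments of 1698 in total and a CV (coefficient of variation, the square root of the authors' variance over their mean) of 0.260. It is a TEC transcript of 1131 bases on chromosome 9 (83174647 to 83175777, minus strand), named Gm38279 in M21. Its nearest gene with a symbol was Hmgn3, which encodes a nucleosome-binding protein, 27962 bases away on the same strand, in a locus with a level of 1005. Here and below, the level of a neighbour or of a similar gene is that of the locus holding it. Many such loci hold further genes, and these are named where they have symbols of their own other than model or clone names and small RNA names. The sequence was not unique. A copy was defined as another M21 gene, not overlapping the locus, with a transcript of at least 95% identity over at least 80% of the member's transcript, and RP24-388H18.1 had 5. They include transcripts of D10Wsu102e at 98.3% identity and of Slc38a6 at 98.1%, both in the reverse orientation. How fragments of such sequence were shared between their places is not given in the sources used here, so levels of members with copies are uncertain.

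RP24-317P24.2 came next, with 742 compatible fragments of 744 in total and a CV of 0.292. It covers 3843 bases of chromosome 1 (40197079 to 40200921, plus strand), and its transcript identifier was not found in M21. Il1r1, the receptor for interleukin 1, was its nearest named gene, 24159 bases away on the same strand and with a level of 392.

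The next 5 places were held by single-exon loci of 387 to 396 bases at nearly one level. RP24-308I2.2 had a mean of 522.6, RP23-136C5.6 of 512.5 and RP24-338A22.1 of 511.0. RP24-69K24.1 and RP24-152H15.4 had the same mean to every deposited digit, 502.473, and the same variance. These last 2 lie on different chromosomes, 9 and 1, and their 387 bases were identical, a run that RP24-308I2.2 and RP24-338A22.1 also contained without a mismatch. RP23-136C5.6 had no M21 sequence to compare. CVs of the 5 ran only from 0.157 to 0.159. Each of the 4 with sequence had 15 copies. Their nearest named genes were Ets1, Trim43b, Kcnt2, Tbx18 and Dst, at 81707, 9839, 211260, 204302 and 42114 bases in the order of the loci above. None of the 5 lay within 5 kb of a named gene, and their neighbours' levels ran from 0.132 for Tbx18 to 2591 for Dst. Since 4 of the 5 share their sequence, the levels of these 4 cannot be taken as independent measurements.

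On chromosome Y, 1 of the 163 clone-named loci was detected. It was RP24-355N14.3 (16691330 to 16697033, minus strand), a TEC transcript of 5704 bases with 476.5 fragments and a CV of 0.375. It had 3 copies, 2 of them over its whole length at 99.0% and 98.8% identity in transcripts of Gm26905 and Gm47578. At the other 162 loci of chromosome Y, 150 of which were listed at 0, no mean reached 1. The nearest named gene of RP24-355N14.3, Rbm31y, lay 703728 bases away and was listed at 0.

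RP24-400J22.1 and RP24-400J22.2, 2 clone names on opposite strands of chromosome 3 (41976152 to 41978123), share a locus with 409.6 compatible fragments of 415.1 in total. In M21 the 2 are the processed pseudogenes Gm37348 and Gm7899. A transcript of Hspa8, the constitutive heat shock protein of the HSP70 family, matched 54.8% of 1 of them at 94.0% identity. The Hspa8 locus itself had a mean of 57141. D3Ertd751e was the nearest named gene, at 172832 bases.

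RP23-330G24.3 had 352.6 compatible fragments of 1046 in total and a CV of 0.262. In M21 it is part of Kantr, and the rest of Kantr forms a locus of its own in the table, 2196 bases away on the same strand with 21.9 fragments. RP23-76C20.4, a processed pseudogene whose sequence resembles Camsap1 (a microtubule-binding protein) at 94.5% identity, had 349 of 982 fragments compatible. Fam150a was the nearest named gene, at 34924 bases. RP23-257I21.1, the Ube2v1-like sequence shown above, had 235 of 1912 fragments compatible, or 12.3%. Its nearest named gene, Rapgef2, lay 1055617 bases away. The locus of Ube2v1, which also holds Tmem189 and Cebpb, had a level of 3666.

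RP23-229N10.3, the shortest of the detected loci, had 349.8 fragments, 7 copies and Trim43c as nearest named gene at 12351 bases. RP23-274G21.3 had 299.4 fragments, all of them compatible to the printed digits, with 11 copies and Amotl2 at 31217 bases. RP24-114A9.1, a spliced long intergenic RNA now called Gm38025, had 199.6 fragments, and Slc7a14 (a membrane transporter of lysosomes) lay 30634 bases away on the opposite strand. RP24-114A9.1 was itself one of the copies of RP23-274G21.3, at 99.6% identity over 85.8% of the latter's transcript. Cover is taken over each member's own transcript, and RP24-114A9.1, with 2308 bases of exon, counts as having no copy. Loci without a copy can thus share long stretches with other genes.

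The remaining members of the first 20 had means between 150 and 231. RP23-267J18.1 had 230.6 fragments and Atp6v1h (a proton pump subunit) at 145210 bases. RP24-149G20.1 had 202.9 fragments, 18 copies and D3Ertd751e at 1743853 bases, the most distant neighbour among detected members. RP23-442A6.1 had 200.8 fragments and Cr2, a complement receptor, at 144567 bases. RP23-431L24.2 had 189.2 fragments and Negr1, a neuronal adhesion protein, at 653469 bases. RP24-152K14.1, a long intergenic RNA without introns or a copy, had 150.1 fragments and lay 901 bases from Pld5 on the opposite strand, the closest neighbour among the first 20. Together, 2 of the first 20 lay within 5 kb of a named gene.

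**Figure D2:**
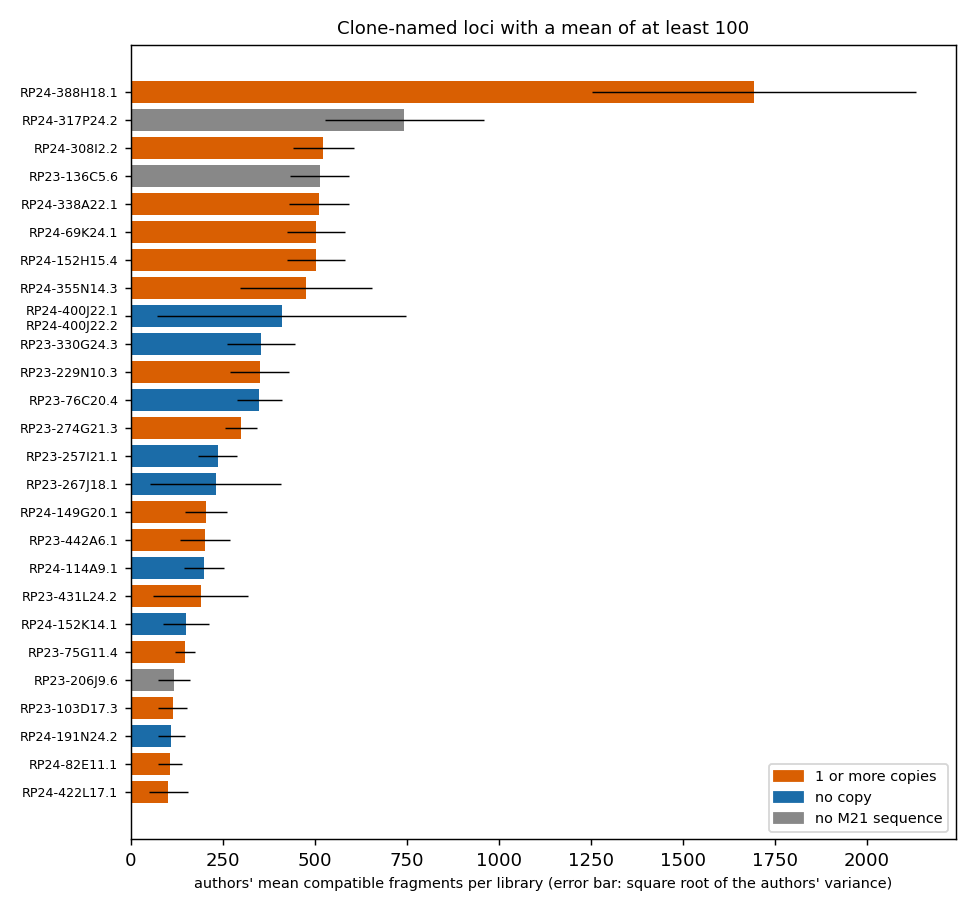
Bars give the authors' mean compatible fragments per library for the 26 clone-named loci with a mean of at least 100, and error bars the square root of the authors' variance. Colour tells loci with at least 1 near-identical copy, without one and without an M21 sequence apart. The first bar, RP24-388H18.1 at 1693, is followed by RP24-317P24.2 at 742 and by 5 loci between 502 and 523.

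Near-identical copies were counted over all members with a sequence. Of the 97 detected loci with a sequence, 38 (39.2%) had a copy, against 250 of 969 loci that were not detected (25.8%). Among the 20 most abundant, 11 of the 18 with a sequence had one. By class, 20 of 29 detected pseudogenes, 17 of 51 TEC transcripts and 1 of 13 long noncoding RNAs had a copy. At detected Gm-named loci the share was 653 of 900 (72.6%). The copy analysis and its limits were chosen after levels had been seen, and none of these shares was tested.

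The compatible share of the signal was summed separately for loci with and without a copy. Members with a copy, detected or not, summed to 6987 compatible fragments, which was 89.9% of their total. Those without a copy summed to 4158, which was 13.9% of theirs. Among detected members the median compatible share was 98.5% with a copy and 79.9% without one.

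Of the 26 detected processed pseudogenes, 25 had a protein-coding transcript matching at least 50% of their length. For 6 of them that gene encodes a ribosomal protein, such as Rpl3, Rpl7a, Rpl21 and Rps2. These 6 loci had means of 11.0 to 91.2, and the loci of the ribosomal genes had means of 4784 to 18274, the highest being that of Rpl3, shared with Syngr1. RP23-370E6.2, the Hmgb1-like sequence, had 73.7 fragments where Hmgb1 had 12176, and RP24-252K15.3, the H3f3b-like one, had 72.8 where H3f3b had 35233. The pseudogene with the highest identity to a coding gene was RP23-187F18.1, at 99.7% over its 343 bases with Itgb5, an integrin subunit. It had 27.1 fragments and Itgb5 had 1625. These levels are not divided by length, and the loci differ in length. Whether each matching gene is a parent was not tested. RP23-103D17.3, RP23-431L24.1 and RP23-431L24.2 matched Vmn2r53, whose locus had a level of 4.88. RP23-255H8.1 matched Olfr539, which was listed at 0. RP23-103D17.3 had 62 copies and RP23-255H8.1 had 27.

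Polyadenylation signals were searched in the same transcripts. Of detected loci with a sequence, 28 of 97 had AATAAA or ATTAAA on the transcript's strand in their last 60 bases. That was 27 of the 59 without a copy (45.8%) and 1 of the 38 with one (2.63%). By class it was 8 of 13 long noncoding RNAs, 16 of 51 TEC transcripts and 1 of 29 pseudogenes. Over all M21 transcripts the share was 34.4%, with 51.0% for protein-coding transcripts, 40.1% for long intergenic RNAs, 30.2% for TEC and 2.88% for processed pseudogenes. The shares of detected TEC and pseudogene members were thus near those of their whole classes. Among the 4 ends shown above, RP24-204F1.1 had 3 marked signals and RP23-267J18.1 had 1.

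Between libraries, the spread of clone-named loci was set beside the authors' fitted variance, the variance that their model expects for a locus of that mean. Detected members had a median CV of 0.674, with quartiles of 0.407 and 0.825, against 0.231 over all detected loci, whose median level was 514 fragments where that of members was 43.5. The variance exceeded the fitted one at 32 of 104 members, or 30.8%, against 26.1% of all detected loci. The median log2 ratio of variance to fitted variance was -0.45 for members and -0.65 for all detected loci. Most of those loci had far higher means, and in bands of equal level members lay at or below the background instead. The share above the fitted variance was 26.3% of members against 38.5% of all loci at means of 10 to 30, 37.5% against 38.4% at 30 to 100, and 24.0% against 24.4% at 100 to 1000. Members with means of 10 to 30 had a median ratio of -0.35, where all loci of that band had -0.27, and those of 30 to 100 had -0.44, where all had -0.34. From 100 to 1000, 25 members had a median of -1.05, where all loci had -0.68 and the 283 Gm-named loci had 0.27. These 25 include the loci between 502 and 523 fragments, at ratios of -1.60 to -1.68. Their levels are not independent, so they weigh more than once in the values of this band. By class, the variance exceeded the fitted one at 13 of 29 pseudogenes, 13 of 51 TEC transcripts and 2 of 13 long noncoding RNAs.

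RP24-429G21.7 stood highest above the fitted variance, with a log2 ratio of 3.27. It had a mean of 25.5 and a CV of 2.55, and the variance implies that its leading library held at least 31.1% of its fragments. The locus lies 3664 bases from Kansl1l on the same strand, and the locus of Kansl1l, which also holds Rpe and several clone-named genes, had a level of 4108. The locus of RP24-400J22.1 and RP24-400J22.2 followed with a ratio of 2.87 and a CV of 0.824. RP23-267J18.1 reached 2.03 with a CV of 0.770, and RP23-117H6.2 also reached 2.03 at a mean of only 18.1. RP23-117H6.2 overlaps Ktn1 in M21. In the merged annotation it lies 775 bases downstream of Ktn1 on the same strand, and Ktn1 had a level of 5549.

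RP24-157G15.1 had a ratio of 1.50, a mean of 49.9 and a CV of 1.13. M21 lists it as the protein-coding gene 2310046K23Rik, and its nearest named gene was Sprr4, one of the small proline-rich proteins of the keratinocyte envelope, 32012 bases away and listed at 0. RP24-574O8.7, an Rpl3-like pseudogene named here after its values were seen, lay 5547 bases from Sprr2a2 and had a ratio of 1.10 with a CV of 0.882. RP23-431L24.2, whose nearest named gene is Negr1, had a higher ratio than RP24-574O8.7, 1.48. The 3 keratinocyte markers, Krt14, Krt13 and Krt4, also varied widely, with means of 2637, 17703 and 19095 and CVs of 0.987, 1.58 and 1.50. Wide spread was not particular to them. Col1a2, Col3a1 and Ptprc, at far lower means, had CVs of 2.40, 2.37 and 2.14. Taste bud markers ran from 0.0577 for Krt8 to 0.196 for Pkd2l1. Whether the keratin-rich libraries were those high in RP24-157G15.1 or RP24-574O8.7 was not tested, because no value per library was available.

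At the other end, the locus of RP23-121N19.1, RP23-121N19.2, RP23-121N19.3 and RP23-406D2.1 had the lowest ratio, -2.87, with a CV of 0.277 at a mean of 35.5. Only 4.85% of its 732 total fragments were compatible. RP23-75G11.4 followed at -2.60 with a mean of 147 and 18 copies, RP23-274G21.3 at -2.47 with a CV of 0.146, the lowest of the detected members, and RP23-44D10.1 at -2.02. RP23-335B9.5, 1363 bases from the opioid receptor gene Oprd1, closed these 5 at -1.97. The low spread was thus found both at loci with many copies and at loci without any.

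**Figure D3:**
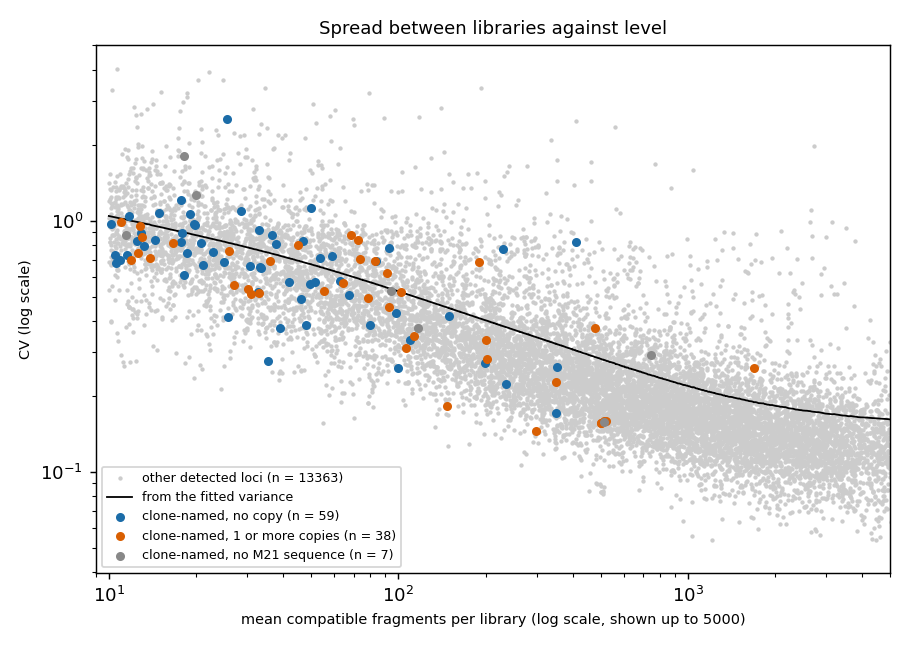
CV is plotted against mean compatible fragments per library, both on log scales, with the other detected loci in grey, the 104 detected clone-named loci in colour and the CV implied by the authors' fitted variance as a line. Most members lie under the line, RP24-429G21.7 lies highest above it at a CV of 2.55, and the 5 loci between 502 and 523 fragments overlap at a CV of 0.16.

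The nearest named gene was found for every clone-named locus. Over all 1123 the median distance to the nearest gene whose symbol is neither a clone nor a model name was 62511 bases, and over the 104 detected it was 22966. Within 5 kb of such a gene lay 162 of 1123 loci (14.4%) and 29 of 104 detected ones (27.9%). Of these 29, 18 were on the strand opposite to their neighbour and 11 on the same strand, where the 162 split into 76 opposite, 83 same and 3 with genes on both strands. Neighbours were detected themselves in 26 of the 29 cases and in 107 of the 162. Head to head, on the opposite strand and upstream of their neighbour, lay 11 of the 18 and 54 of the 76. Detected loci without a copy lay within 5 kb in 24 of 59 cases and those with a copy in 2 of 38.

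Several of these close pairs flank abundant genes. RP23-84C12.22, with 14.4 fragments, began 46 bases upstream of Arhgdia, which had a level of 3627. RP23-310L8.1, with 48.0 fragments, lay 323 bases upstream of Ep300, a histone acetyltransferase with a level of 2118. RP24-252K15.4, with 67.8 fragments, lay 1804 bases upstream of Hnrnpu, an RNA-binding protein. The locus that Hnrnpu shares with Cox20 had a level of 11519. RP24-272N10.3, with 39.0 of 155.7 fragments compatible, lay 4087 bases upstream of Atp1b1, a sodium pump subunit. The locus that Atp1b1 shares with Nme7 and Blzf1 had a level of 18068. All 4 were on the strand opposite to their neighbour and were picked after their values were seen.

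On the same strand, 9 of the 11 close detected loci lay downstream of their neighbour, as did 54 of the 83 over all clone-named loci. RP23-211O3.4, with 62.8 fragments, began 186 bases after Stam, an endosomal sorting protein with a level of 1752. RP24-388H6.6, with 18.7 fragments, began 394 bases after Mfsd6, with a level of 5494. RP23-1D15.3, now named Rncr4, lay 3156 bases from the microRNA gene Mir183 on the opposite strand, and had 28.5 fragments with a CV of 1.10, while Mir183 was listed at 0.

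**Figure D4:**
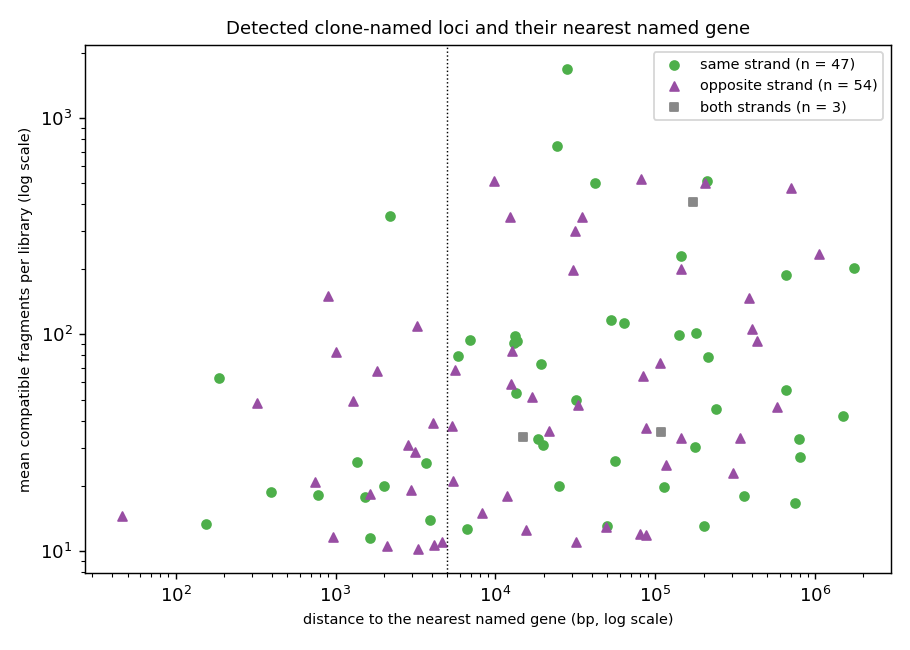
Each point is a detected clone-named locus, with the distance in bases to its nearest named gene on the horizontal axis and its mean compatible fragments per library on the vertical axis, both on log scales, and with shape and colour giving the strand relative to that gene. The 29 loci left of the dotted line lie within 5 kb, and the loci with more than 502 fragments all lie to its right.

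Some clone-named loci carried many fragments of which almost none were compatible. The 5 with the highest total under a compatible mean of 10 were led by RP23-255L15.1, shown above, with 0 of 6445. It is a single exon of 363 bases without a copy, and its nearest named gene, Abca13, lies 21002 bases away on the opposite strand with a level of 19874. RP24-335B5.1 had 0 of 1928 and lay 56135 bases from Eya1, a developmental phosphatase gene, on the same strand. RP23-36B4.2, on chromosome 9, had 0.0858 of 1183 and lay 64702 bases from Ntm, a neuronal adhesion protein. RP23-348K1.1 had 0 of 555, with Gfra2, a receptor for neurotrophic factors, at 391164 bases. RP23-23B15.1, a pseudogene similar to Hspd1 (a mitochondrial chaperone) at 90.4% identity, had 0 of 395, and the locus that Hspd1 shares with Hspe1 had 6576.

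Detected members could show the same imbalance. At 20 of the 104 (19.2%) the compatible share was under 50%, against 7.20% of all detected loci and 14.1% of Gm-named ones. Of the 20, 9 were among the 16 spliced members. RP24-114E18.7 had 11.0 of 4064 fragments compatible. In M21 it is 2900097C17Rik, whose span of 4915 bases exceeds the 1149 bases of the deposited transcript. RP23-349M18.1 had 42.1 of 1572 compatible and is in M21 part of Naaladl2, a gene spanning 1346160 bases. An M21 gene at least 10% longer than the deposited locus was found for 10 members, 3 of them detected, and these 3 had compatible shares of 0.270%, 2.68% and 33.7%.

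For orientation, RNA of taste cells was abundant in these libraries. The keratin gene Krt8, typical of taste bud cells, stood at 37058 fragments, Gnat3, the taste G protein gustducin, 24576, and Rgs21, a G protein regulator of taste cells, 31578. Trpm5, Plcb2, Pkd2l1 and Entpd2 were detected too, Trpm5 and Entpd2 at loci shared with another gene. Keratinocyte markers were abundant as well, with Krt14 at 2637, Krt13 at 17703 and Krt4 at 19095. The fibroblast markers Col1a2 and Col3a1 were at 5.31 and 5.32, and the leukocyte marker Ptprc was at 47.4 at a shared locus. From a list of 40 established long noncoding RNAs, 28 were found in the annotation and 19 lay at detected loci. Only Firre formed a locus of its own, with 159.6 of 1957 fragments compatible. The other loci are shared, some with coding genes, such as Kcnq1ot1 with Kcnq1 and Airn with Igf2r. Their levels therefore cannot be credited to the noncoding RNA alone.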

How the data were processed

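RNA of 21 circumvallate taste bud libraries, 7 per labelled group, was sequenced. Trimmomatic, FastQC, TopHat, Bowtie2, Cufflinks and Cuffdiff, without versions, and the build GRCm38.p4 appear in the submitters' processing notes. Per locus, the authors deposited a signal (mean scaled fragments, compatible and total), its variances and the variance fitted by Cuffdiff's model, per the file headers. The 3 conditions did not differ at any of 32052 loci, so groups were not compared. Summed means were 21881979 compatible and 23769781 total fragments. The sources used here do not give depth per library or the handling of strand and multiply mapped fragments.

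Members were found by gene name in the merged annotation. They and all lists were chosen with earlier results of these data known. Loci named were the 20 most abundant, the 5 highest totals under a compatible mean of 10, and the 5 highest and 5 lowest ratios of variance to fitted variance at means of at least 10. Other loci were named after their values were seen. CV, that ratio and the distance between spans to the nearest gene without a clone or model name were computed. The leading library's least share is the variance over the squared mean divided by 21, which assumes a variance within library sets with that divisor. Loci carried by 1 library gave values for sets of 8 (474 loci), 7 (667) and 6 (454) libraries, which differs from the labels' 7 per group.

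Copies came from M21 transcripts compared with megablast (BLAST+ 2.17.0). The copy, poly(A) signal and 5 kb limits were chosen after seeing the data. Promoters and genomic 3′ ends of the 6 most abundant loci had been planned, but no genome was used, so transcript ends of other loci are shown. Functions were checked on 2000 simulated loci, with the fitted variance taken from the formula that generated them. All of 200 loci with raised variance came out above it, and so did 26.9% of the others. This checks the code and not the fit of Cuffdiff's model. Software was Python 3.11.15 with pandas 2.3.3, numpy 2.4.6 and matplotlib 3.10.9.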

Additional observations from a re-analysis of the deposited data

How the results depend on the processing

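No paired analysis was possible because the table holds no value per library, and for the same reason no library could be left out. With detection at a mean of 50 in place of 10, 46 clone-named loci were detected, their median level was 111 fragments, median CV 0.401 and median compatible share 98.9%. At a mean of 5 the median level was 32.9, the CV 0.712 and the share 90.5%. Counting loci in which any name is a clone name gave 527 detected loci, a median level of 612, a CV of 0.240 and a share of 93.2%. By total fragments, 239 loci were detected, with a median of 35.4, a CV of 0.658 and a compatible share of 8.0%. Against a running median of the variance over loci of similar mean, 43.3% of members lay above. By construction about as many of all detected loci lie above such a median as below it. The value is therefore not comparable with the shares above the fitted variance. The median distance to a named gene was 85214.5 bases with protein-coding genes only and 22966 for detected loci. Requiring 98% identity left 21 detected loci with a copy, against 38 at 95%. Without loci that have a copy, chosen after seeing the data, the median CV was 0.707. The least share of the leading library reached 50% at no detected locus. Leaving out loci at or above 50% therefore removed no detected one and changed no value. Being a lower bound, this share cannot show that no single library held most of a locus's fragments. Sampling error of single means cannot be given, since the depth of each library is unknown.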
